A study of Mus musculus with 2 samples.

Results

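Mir320, Mir484 and Mir877 are mouse microRNA (miRNA) genes that are known to be made without the nuclear enzyme Drosha. They were taken by name as 3 of the 1973 miRNA genes listed in small RNA counts of embryonic lung. The rule of choice used no measured value, but earlier results of these data were known when it was made. Counts came from 2 libraries of B6NCrl mouse lung at embryonic day 14.5, biological replicates of 1 group for which the labels give no treatment and no genotype beyond the strain. The labels name 1 pup per library and also a mixed sex, so more than 1 embryo per library is possible, and they give different collection days, so replicate and day cannot be told apart. There is no contrast between conditions, and what can be described is each gene's level, its place among other miRNAs, its strand and the spread between the 2 libraries.

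Most miRNAs are cut out of long nuclear transcripts by Drosha with its partner Dgcr8, then trimmed by Dicer and loaded into Argonaute proteins. A mirtron such as Mir877 is instead a short intron: splicing sets both of its ends, and the debranched intron folds into the hairpin that Dicer cuts. The hairpins of Mir320 and Mir484 begin where transcription begins, so that they carry the cap of an ordinary transcript and need no cut by Drosha. Mir484 has been studied as a regulator of mitochondrial fission and Mir320 in heart and energy metabolism.

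Mature sequences of Mir484 and Mir877 are shown because they are the annotated products of these genes. The seed (bases 2 to 8, which pairs with target RNAs) is in capitals. Reads were aligned to the genome and counted per gene, so a counted read need not be a mature sequence. The sequences shown are those of RefSeq on GRCm38.p6, the assembly that mm10 names, and 2 of the 3 genes had an entry.
mmu-miR-484 (chr16:14159630-14159651, plus strand): uCAGGCUCaguccccucccgau
mmu-miR-877-5p (chr17:35960795-35960814, minus strand): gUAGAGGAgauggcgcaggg
mmu-miR-877-3p (chr17:35960731-35960752, minus strand): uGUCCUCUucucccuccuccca
Each of these 3 seeds was shared with 0 of the other mature miRNAs among the 1679 names in the same table, so none of these sequences belongs to a seed family there. In a search of 141767 annotated GENCODE transcripts, each mature sequence occurred in 1 gene, its own. Copies outside annotated transcripts were not searched. This bears on the counts because reads that mapped to several places were assigned to no gene.

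The whole Mir877 hairpin is shown because its ends make it a mirtron, a property of annotation and not a result of the counts. The capitals mark its first and last 2 bases, the GU and AG with which most introns begin and end.
Mir877 hairpin (chr17:35960730-35960814, minus strand): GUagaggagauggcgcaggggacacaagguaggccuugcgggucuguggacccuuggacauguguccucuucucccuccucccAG
The hairpin and an annotated intron of Abcf1, which encodes an ATP-binding cassette protein active in translation, have the same first and last base (offset 0 at both ends) and a length of 85 bases. The 5p arm starts at the first base of the intron, and the 3p arm ends 1 base before its last. Of 1005 hairpin sequences in the RefSeq table, 30 (2.99%) start with GU and end with AG. The minimum folding energy of the Mir877 hairpin was -36.5 kcal/mol, or -0.43 per base against a median of -0.41 over all hairpins. For the 67-base Mir484 hairpin it was -24.6 kcal/mol, or -0.37 per base. GC content was 61.2% for Mir877 and 58.2% for Mir484, both above the median hairpin at 51.7%.

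Mir320 and Mir484 lie outside annotated exons and introns of their own strand, each with the start of a coding gene behind it on the other strand. Mir320 (ENSMUSG00000065528, chromosome 14, 70443510 to 70443591, plus strand, 82 bases) begins 63 bases from the nearest annotated start of Polr3d, a subunit of RNA polymerase III, which is transcribed away from it. Mir484 (ENSMUSG00000070074, chromosome 16, 14159626 to 14159692, plus strand) begins 359 bases from a start of Marf1, a regulator of oocyte RNA. Transcription from that start runs away from Mir484. The last 19 bases of the Mir484 hairpin overlap an exon of 1 Marf1 transcript on the opposite strand, and the rest lies opposite to an intron. That Marf1 transcript therefore runs across the hairpin from its 3' side, unlike the layout of Polr3d and Mir320. The next coding start downstream on the strand of Mir484 was that of Nde1, a partner of dynein, at 3583 bases. Mir877 (ENSMUSG00000077931, chromosome 17, 35960730 to 35960814, minus strand) lies in an intron of Abcf1 on the same strand. Coordinates are those of GENCODE M21 on mm10.

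**Figure D1:**
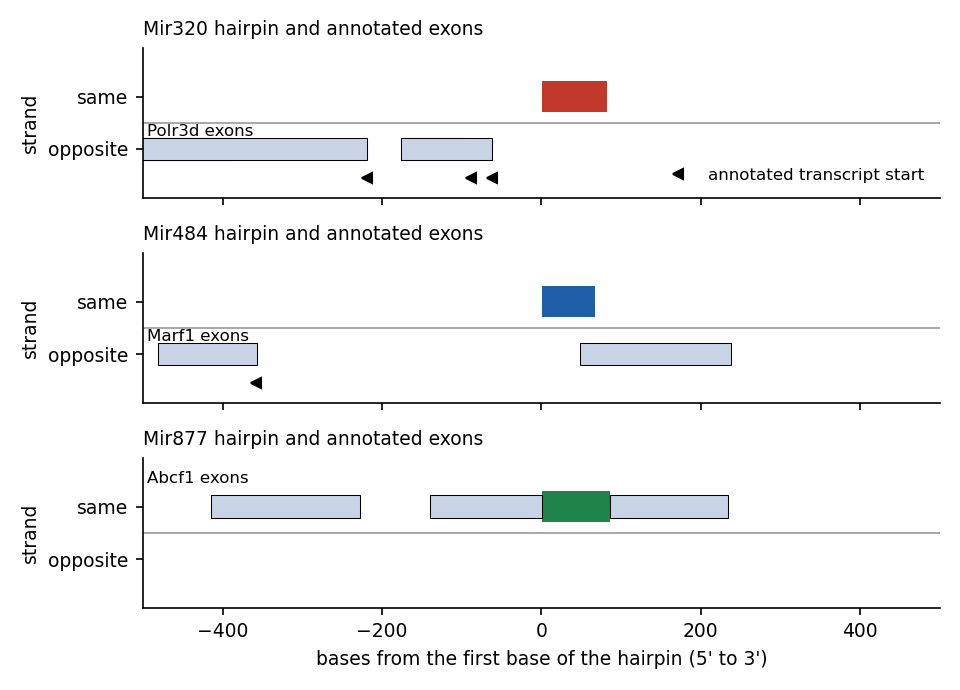
Annotated exons (pale boxes) and transcript starts (arrowheads) around the hairpins (coloured boxes) of Mir320, Mir484 and Mir877. The x axis gives bases from the first base of the hairpin in its own direction and the y axis the strand relative to it. The nearest annotated starts of Polr3d and Marf1 lie 63 and 359 bases before the hairpins on the opposite strand. Another Marf1 exon overlaps the end of the Mir484 hairpin. The Mir877 hairpin fills the 85-base gap between 2 Abcf1 exons.

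Placement of this kind was rare among miRNA genes. An opposite-strand coding start lay within 500 bases upstream of the hairpin for 28 of 1894 annotated miRNA genes (1.48%), a window set after the distances had been seen. Of these, 4 had at least 10 counts in each library, beside 320 of all 1973 genes. Levels here and below are counts per 1000000 gene-strand miRNA counts (CPM). Mir484 and Mir320 were the most abundant of the 28, followed by Mir760 beside Bcar3 (31.4 CPM) and Mir1934 beside Mpdu1 (4.21).

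Replicate 1 held 10200412 reads and 5128214 counts on the strand of a miRNA gene, and replicate 2 held 4544184 and 2332032. A CPM value therefore has less counting error in replicate 1. Lung markers were abundant in both libraries, with the endothelial Mir126a, the smooth muscle Mir143, the epithelial Mir200c and Mir429 and the mesenchymal Mir214 between 8430 and 78321 CPM. Mir126a and Mir143 had 76032.5 and 78321 CPM in replicate 1 and 58438 and 60488 in replicate 2. Mir429 was also lower in replicate 2, whereas Mir200c and Mir214 were higher there. All 6 markers of erythroid and myeloid cells, heart and liver had counts, from 11.6 to 589 CPM, and their summed level was 1457 CPM in replicate 1 and 1008 in replicate 2. Within that sum the liver marker Mir122 was higher in replicate 2 (22.4 and 39.5 CPM), and the other markers were lower there. The cardiac Mir208a stood apart, with 299 CPM in replicate 1 against 11.6 in the other library, and its part in the differences below was not tested. In bulk tissue, fewer cells of a type and less RNA per cell cannot be told apart.

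Mir484 was the most abundant of the 3 genes in both libraries, followed by Mir320 and then by the mirtron Mir877. Mir484 had 10784 counts in replicate 1, or 2103 CPM (95% exact Clopper-Pearson interval 2063 to 2143), and 5340 counts in replicate 2, or 2289.9 CPM (2229 to 2352). Its mean of 2196 ± 132 CPM (SD, n = 2) lay above 78.8% of the 320 detected genes (at least 10 counts in each library), whose median was 195 CPM. It ranked 71 and 67 of all 1973 genes in the 2 libraries. The libraries thus placed it nearly alike, with replicate 2 slightly higher on this scale and slightly lower after scaling by DESeq2 size factors.

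Mir320 had 3018 counts in replicate 1, or 589 CPM (568 to 609.9), and 1742 counts in replicate 2, or 747 CPM (712 to 783). Its mean was 668 ± 112 CPM, above 63.8% of detected genes, and it ranked 116 and 114. The intervals of the libraries did not overlap, which was also so for Mir484 and Mir877, although the ranks of Mir320 differed by 2 places. How many other genes had such intervals was not counted. Differences beyond counting error were common, as 177 of 404 genes passed the exact binomial test below when scaled by library totals. Mir877 had 300 counts in replicate 1, or 58.5 CPM (52.1 to 65.5), and 214 counts in replicate 2, or 91.8 CPM (79.9 to 104.9). Its mean of 75.1 ± 23.5 CPM lay above 36.3% of detected genes, with ranks of 215 and 193. Of the 3 genes it rested on the fewest reads and had the widest spread, a coefficient of variation of 31.3% against 16.8% for Mir320 and 6.02% for Mir484. The median over detected genes was 11.1%. Intervals cover counting error only, since amplified reads need not be independent molecules.

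**Figure D2:**
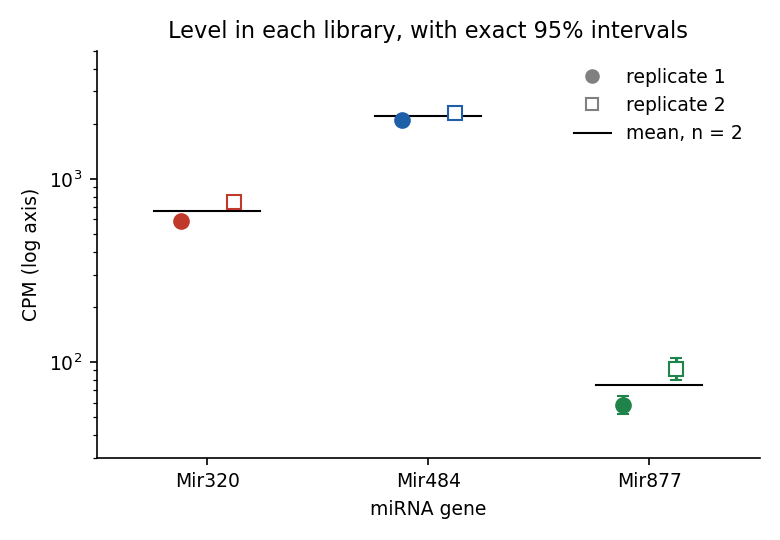
CPM on a log axis for Mir320, Mir484 and Mir877 in replicate 1 (filled circles) and replicate 2 (open squares), with exact 95% intervals and the mean of both libraries (line). Replicate 2 is higher for each gene on this scale (Mir484 is lower there with DESeq2 size factors), and the order Mir484, Mir320, Mir877 holds in both libraries.

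Together the 3 genes held 0.275% of gene-strand counts in replicate 1 and 0.313% in replicate 2. Mir484 made up 76.5% and 73.2% of that, Mir320 21.4% and 23.9%, and Mir877 2.13% and 2.93%. Within a library, where scaling plays no part, reads of Mir484 exceeded those of Mir320 by 3.57-fold (exact interval 3.43 to 3.72) in replicate 1 and 3.07-fold (2.90 to 3.24) in replicate 2. Mir484 exceeded Mir877 by 35.9-fold (32.0 to 40.5) and 25.0-fold (21.8 to 28.7). Mir320 exceeded Mir877 by 10.1-fold (8.93 to 11.4) and 8.14-fold (7.06 to 9.43). The intervals of the libraries did not overlap for the ratios of Mir484 to the other genes and overlapped for Mir320 to Mir877. These are ratios of reads, because how readily each sequence enters a library was not measured, and no test of their sign is given, since 2 libraries allow an exact two-sided p no smaller than 0.5.

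Neighbours in rank did not differ from the 3 genes by more than the spread between libraries. Directly above Mir484 (2196 ± 132 CPM) stood Mir100 (2260.3 ± 189) and Mirlet7f-2 of the let-7 family (2224.5 ± 103), and directly below it Mir381 of the imprinted Dlk1-Dio3 locus (2142 ± 23.6) and Mir872 (2105 ± 229). Mir320 (668 ± 112) was framed by Mir494 (673 ± 141) and Mir106a (668 ± 144) above and Mir676 (643 ± 46.3) and Mir199b (631 ± 109) below. Mir877 (75.1 ± 23.5) stood between Mir103-2 (76.4 ± 8.44) and the immune-cell Mir155 (76.0 ± 18.1) on one side and Mir19a (75.0 ± 13.4) and Mir128-1 (74.7 ± 4.14) on the other. Some of these genes, such as Mirlet7f-2, Mir106a, Mir199b, Mir103-2 and Mir128-1, belong to families with near-identical copies, so their own places are uncertain where multimapping reads were set aside.

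**Figure D3:**
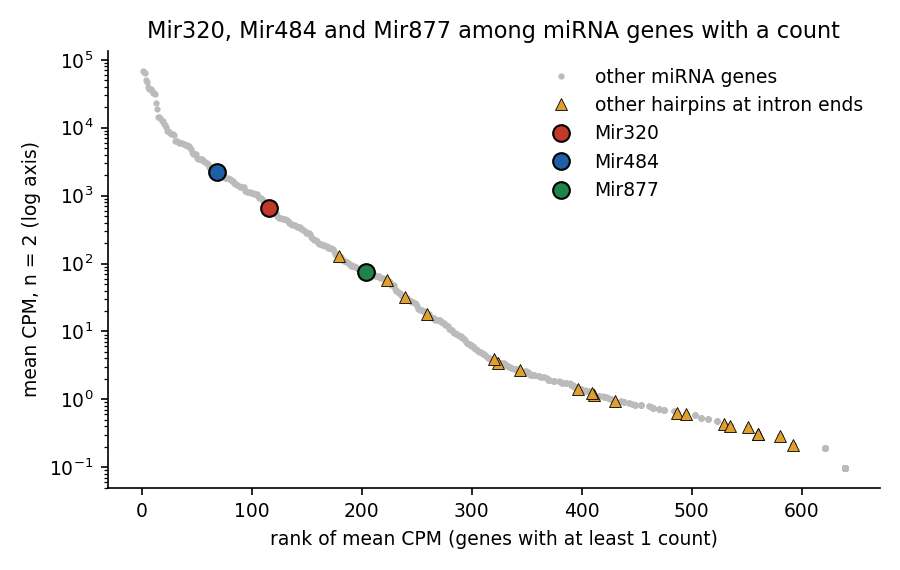
Mean CPM of both libraries (log axis) against rank for miRNA genes with at least 1 count, with Mir320, Mir484 and Mir877 as coloured circles and other hairpins at intron ends as triangles. Mir484 and Mir320 lie in the upper part of the curve at ranks 68 and 116, and Mir877 at 204, near the upper end of the intron-end hairpins.

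All counts at the 3 genes fell in a single strand column. That column was taken as the gene strand because it held nearly all counts over all genes (97.2% of both strands in each library), so its direction is an inference and not a result. The opposite-strand count was 0 for each gene in both libraries, which allows an opposite-strand share of up to 0.0278% and 0.0562% for Mir484, 0.0994% and 0.172% for Mir320, and 1.00% and 1.40% for Mir877 (3 counts of each gene's total). This was the usual pattern, as 288 of 320 detected genes (90.0%) had 0 opposite-strand counts in both libraries. For Mir484 the opposite strand is that of the Marf1 exon that overlaps its hairpin.

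Mir877 was among the leading miRNAs of its structural class. Across the annotation, 29 miRNA genes had both hairpin ends within 10 bases of the ends of 1 intron on their strand, and 22 of these matched it to the base. Of the 29, 6 (20.7%) were detected, against 314 of the 1865 other annotated miRNA genes (16.8%). Genes with 0 counts in both libraries were 8 of 29 (27.6%) and 1199 of 1865 (64.3%). The median level was 0.43 CPM for the list and 0 CPM for the others. The other genes include hairpins that have only Gm names and no counts, such as Gm22201 and Gm22877. The list itself holds Gm24589 and Gm27471. How far such differences in annotation account for the gap was not tested. These shares are descriptions without a test, and the list held 0.0282% and 0.0376% of counts, of which Mir877 was 20.7% and 24.4%.

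Mir3102, in an intron of Arhgef17, exceeded Mir877 in both libraries, with 586 counts (114 CPM) in replicate 1 and 335 counts (144 CPM) in replicate 2. Mir1981 in Marc2, a mitochondrial reductase gene, had 255 and 147 counts (49.7 and 63.0 CPM), below Mir877 in both. Mir702 in Plod3, which encodes a collagen-modifying enzyme, had 148 and 81 counts (28.9 and 34.7 CPM). Mir6944 in Dbn1, which encodes the actin-binding drebrin, had 78 and 50 counts (15.2 and 21.4 CPM). The order of these 5 genes was the same in both libraries. Mir877 and Mir1981 differed by less than the SD of Mir877, at 75.1 ± 23.5 and 56.4 ± 9.41 CPM. Mir1224, a mirtron of Vwa5b2, had 3 and 4 counts, which is at the limit of what these depths can show.

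**Figure D4:**
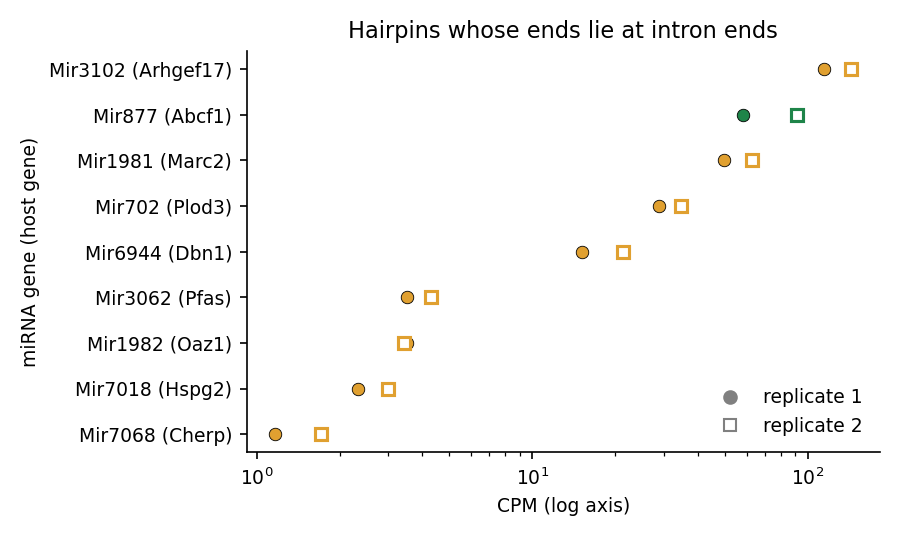
CPM on a log axis in replicate 1 (circles) and replicate 2 (squares) for the 9 hairpins at intron ends with at least 10 counts over both libraries, with host genes in brackets. Mir877 (green) is second to Mir3102, and 8 of the 9 genes are higher in replicate 2.

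The 5p arms of these genes show what Mir877 shares with its class and where members of the class differ, with seeds again in capitals.
mmu-miR-877-5p (chr17:35960795-35960814, minus strand): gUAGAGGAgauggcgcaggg
mmu-miR-3102-5p (chr7:100882388-100882409, minus strand): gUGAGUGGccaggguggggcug
mmu-miR-1981-5p (chr1:184822465-184822488, minus strand): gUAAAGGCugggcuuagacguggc
mmu-miR-702-5p (chr5:136991442-136991462, plus strand): gUGAGUGGggugguuggcaug
mmu-miR-6944-5p (chr13:55477754-55477776, minus strand): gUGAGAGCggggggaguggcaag
mmu-miR-1224-5p (chr16:20604452-20604472, plus strand): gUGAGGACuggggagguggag
All 6 begin with GU, the start of the intron. This follows from taking hairpins at intron ends, so the share of GU among all names below is no test of it. For the hairpins that match an intron to the base, 16 of 18 annotated 5p arms begin at its first base, and 9 of those 16 begin with GUGAG. Among all 1679 mature names 60 (3.57%) begin with GU and 14 (0.834%) with GUGAG. Only the strand of the mature miRNA was searched. Seeds of such arms thus include splice-site letters, and mmu-miR-3102-5p and mmu-miR-702-5p have the same seed. Mir877 differs from those by beginning with GUAGA, but it is not alone in lacking GUGAG. The 5p arms of Mir1981, Mir7091 and Mir7080 do not begin with GUGAG either. Which arm the reads came from is not recorded in gene-level counts.

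Of 7 other noncanonical miRNAs, 5 were among the listed genes, all below Mir484 in both libraries, with means from 1.15 CPM for Mir1224 to 1817 CPM for Mir1983. Mir1839 and Mir664, known as small nucleolar RNA-derived, were not analysed here. Mir1983, which is derived from a tRNA, had 10300 and 3793 counts (2009 and 1626 CPM) and stood between Mir484 and Mir320 in both libraries. Counts cannot tell its miRNA reads from other fragments of that tRNA. Mir451a, an erythroid miRNA cut by Ago2 in place of Dicer, had 2023 and 794 counts (394 and 340 CPM) and stood below Mir320. The mirtrons Mir3102, Mir702 and Mir1224 are given above. The order of all 8 genes was the same in both libraries, although Mir484 (2103 CPM) and Mir1983 (2009 CPM) were close in replicate 1.

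Mir877 and Mir320 were higher in replicate 2 by more than counting error, while Mir484 was not called. On scaled CPM with 1 CPM added, the log2 ratio of replicate 2 to replicate 1 was 0.55 for Mir877 (exact two-sided binomial test, Benjamini-Hochberg adjusted p = 6.49e-05), 0.25 for Mir320 (exact binomial adjusted p = 2.96e-08) and 0.03 for Mir484 (exact binomial adjusted p = 0.296). Such calls were common: of 404 genes tested 169 passed (41.8%), and 72 passed as higher in replicate 2 (17.8%). The test compares the reads of 2 libraries, not conditions. A dispersion for the edgeR exact test could only come from these same 2 libraries, taken as 1 group. The differences tested thus set the dispersion, so few genes can pass, and no conclusion is drawn from that test. When the dispersion between the libraries was added to counting error in the edgeR exact test, adjusted p was 1 for each of the 3 genes and 1 gene of 404 passed (0.248%), Mir208a.

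Against genes of like abundance the 3 differed in place. Of 57 genes within 2-fold of the mean level of Mir877, 22 passed the binomial test and 2 had a higher log2 ratio than Mir877. Their median was 0.02. Of 52 genes within 2-fold of Mir320, 38 passed, 10 had a higher ratio, and the median was 0.01. Mir484 had 54 such genes, of which 43 passed and 16 had a higher ratio. Its own ratio depended on scaling, at 0.12 with library totals (exact binomial adjusted p = 1.85e-06) and -0.014 with DESeq2 size factors (exact binomial adjusted p = 0.728).

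**Figure D5:**
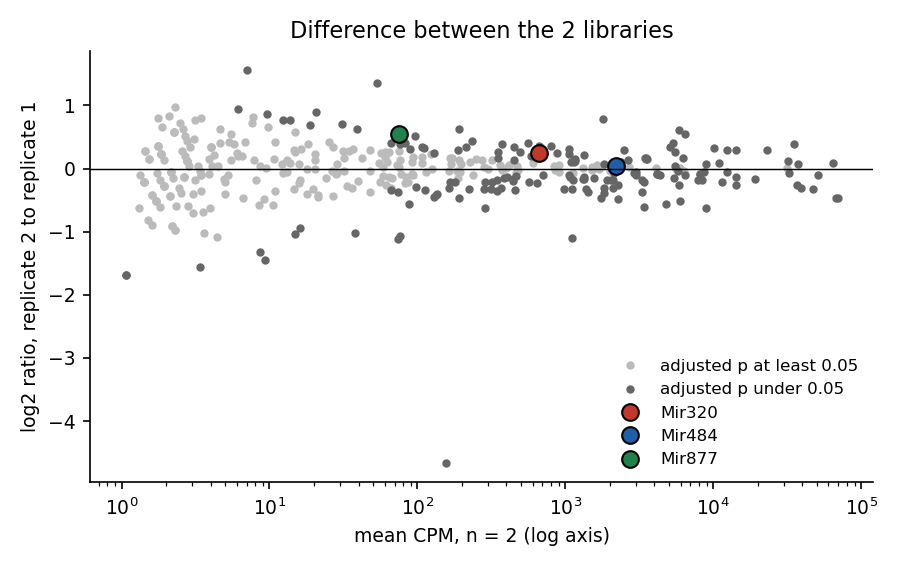
Log2 ratio of replicate 2 to replicate 1 against mean CPM (log axis) for the 404 genes tested, with those under an adjusted p of 0.05 in dark grey. Mir877 (0.55) and Mir320 (0.25) lie above 0 within the cloud of genes of like level and Mir484 (0.03) lies near 0, and the lowest point is Mir208a.

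Most intron-end hairpins tested, Mir877 among them, had higher values in replicate 2. Of the 9 tested, with Mir877 included, 8 had a log2 ratio above 0 and the median was 0.24. For all genes tested the median was -0.03 and 194 of 404 (48.0%) were above 0. Some of the 9 rested on few counts, such as Mir7018 with 12 and 7 and Mir7068 with 6 and 4. The count of 8 was the same with library totals and with DESeq2 size factors. Only Mir877 and Mir3102 (0.24, exact binomial adjusted p = 0.0379) passed, 2 of 9 beside the 41.8% of all genes. Mir3102 did not pass with DESeq2 size factors (0.19, exact binomial adjusted p = 0.120). Mir1983 (-0.39, exact binomial adjusted p = 1.66e-47) and Mir451a (-0.30, exact binomial adjusted p = 1.94e-06) were lower in replicate 2. The erythroid marker Mir144 was lower there too (102 CPM in replicate 1 and 51.0 in replicate 2). No difference in cell content is inferred from these genes.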

How the data were processed

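Per the deposited readme, reads were aligned to mm10 and annotation M4 was used for counting. The authors deposited 3 unnamed columns of raw counts for each miRNA gene, all whole numbers. The first equalled the sum of the other 2 for every gene. Of those, the one with the larger total was taken as the gene strand and the other as the opposite strand, an inference from the values on which every strand-specific value rests. Which aligner and counter were used is not given in the sources used here. Reads from the RNA fraction under 30 nt were counted, per the labels. Summary entries (unmapped 12.7% and 11.7%, multimapping 32.9% and 33.1%, no feature 4.10% and 3.93%, ambiguous 0% of reads in replicates 1 and 2) belong to no gene and were left out of totals and of every test. Identifiers of 1894 of 1973 genes matched GENCODE M21, and the other 79 held 1 count. No column was left without a sample (0 columns).

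CPM used gene-strand counts, so that 1 count equals 0.195 CPM in the deeper library and 0.429 in the other. Genes with at least 10 counts over both libraries were tested by an exact two-sided binomial test on TMM-scaled library sizes (all listed genes, edgeR 4.0.16), with Benjamini-Hochberg adjustment over all genes tested and a threshold of 0.05. Since each side is 1 library, a quasi-likelihood fit has no residual degrees of freedom. The common dispersion of the edgeR exact test was estimated from the same 2 libraries taken as 1 group. The binomial test was also run on simulated counts that held counting error only, which does not test it against other spread between libraries. Alternatives were other denominators, the unstranded column, each replicate left out, library totals, DESeq2 1.42.0 size factors, other filters and pseudocounts, the edgeR exact test with the common dispersion (0.034), other intron-end limits and, added after the data had been seen, TMM over genes with at least 10 counts. Introns, exons and starts came from M21 and hairpins were folded with RNAfold 2.7.2. No genome sequence was used.

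The 3 genes and the lists were chosen with earlier results of these data known. Named genes are the 3, the other noncanonical list, the 2 genes above and below each in mean CPM, the 5 highest intron-end hairpins and the cell type markers. Mir760 and Mir1934 were chosen after their values were seen.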

Additional observations from a re-analysis of the deposited data

How the results depend on the processing

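Levels followed the denominator. With multimapping and other mapped unassigned reads added to it, the means were 1271 CPM for Mir484, 386 for Mir320 and 43.5 for Mir877, and without the most abundant gene Mir484 stood at 2359 CPM. These change the scale of all genes together, and the order of the 3 stayed the same. The unstranded column and leaving out either replicate moved no level or ratio by more than 1 SD, but with n = 2 leaving one out cannot move a mean further than that.

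The log2 ratio of Mir484 between replicates was 0.12 and called with library totals, and -0.014 and not called with DESeq2 size factors, because these scalings shift all ratios (TMM by -0.09 and DESeq2 by -0.14 relative to library totals). Mir320 and Mir877 kept their direction and call under every other scaling, filter and pseudocount tried and under the unstranded column. Both lost the call with the edgeR exact test and the common dispersion, where the log2 ratios stay 0.25 and 0.55, adjusted p is 1, and unadjusted p is 0.502 and 0.163. In that test 1 gene passed in place of 169, 0 of them higher in replicate 2 (72 by the binomial test) and 1 higher in replicate 1 (97), and 16 genes had an unadjusted p under 0.05. With library totals 112 genes were called higher in replicate 2.

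The number of hairpins at intron ends rose from 29 to 48 within 20 bases, and 17 in place of 6 were detected with at least 1 count in both libraries. No paired analysis was possible because there is 1 group. With 300 and 214 counts, Mir877 is the gene whose precision depth limits most.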
